A study of Mus musculus with 3 samples.

Results

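The response of brown adipocytes to 2 h of isoproterenol (ISO) was read as the ratio of gene expression signal at 2 h to that at 0 h, from 1 array each. Of 6815 genes measured, 184 (2.70%) were higher at 2 h and 53 (0.778%) were lower by a log2 ratio of at least 0.8, which is 1.74-fold. These 237 genes are described here, and mainly the 94 (1.38%) that were higher and the 50 (0.734%) that were lower at 2 h without having reached that size in the same direction at 1 h. They are called late rises and late falls below. A gene counted as measured if a probe set with a single gene symbol had a signal of at least 100 on either of the arrays, and the probe set with the highest mean of both stood for the gene. Each time point had a single array, which leaves no replicate error and allows no test, so the limit is a size, and the percentages above are the background against which counts of gene groups are read.

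The study asked how β-adrenergic stimulation changes chromatin and gene activity in brown fat through JMJD1A, the histone demethylase encoded by Kdm3a. The 3 samples were total RNA of iBATs on day 8 of differentiation, at 0, 1 and 2 h after ISO was added. iBATs are adipocytes differentiated with insulin and indomethacin from 1 line of stromal vascular cells of interscapular brown fat of C57BL/6 mice, immortalized with the SV40 large T antigen, which all 3 samples therefore carry. The sample at 0 h had the same differentiation and no ISO.

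ISO is an agonist of all β-adrenergic receptors. In brown adipocytes these receptors raise cyclic AMP, which activates protein kinase A (PKA), and PKA phosphorylates proteins that release fatty acids from lipid droplets and transcription factors such as CREB, which binds the cyclic AMP response element (CRE) of target genes. The first genes to respond often encode transcription factors, cytokines and inhibitors of signalling, whose products can act on further genes at later times.

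Values are MAS5 signals (linear intensity, 1 per probe set) on a scale common to the arrays, whose means are 100 once the top and bottom 2% are trimmed. The median log2 ratio of all genes was -0.07 at 2 h, and the robust spread was 0.24, from 0.42 in the dimmest of 20 bins of mean signal to 0.12 in the brightest. Adipocyte markers were present, Fabp4, a fatty acid-binding protein, having signals of 7490.0, 7871.8 and 7095.6 in the order 0, 1 and 2 h that is used throughout. None of 8 measured adipocyte markers reached the limit at 2 h (log2 ratios -0.28 to 0.66), and neither did any of 8 preadipocyte and fibroblast markers (-0.45 to 0.18), whose signals summed to 16412.9, 16654.2 and 15408.5. Thy1 and Cd34 were not measured, with highest signals of 9.9 and 19.4. The 8 measured markers of preadipocytes and fibroblasts were brighter, from 124.3 to 4132.8 at 0 h around a median of 2004.75. Macrophage, endothelial and muscle markers all stayed below 100, with highest signals of 93.2 for Cd14, 12.3 for Cldn5 and 77.9 for Des. In RNA of a whole culture, fewer cells of a type and less RNA per cell cannot be told apart, and the part of undifferentiated cells in the ratios was not tested.

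Most measured genes that were higher at 1 h stayed past the limit and others joined them. On the same genes 100 were higher and 16 lower at 1 h. At 2 h 90 of the 100 were still past the limit, but 13 of the 16 were no longer lower by it. Genes that reached 100 at 1 h alone, such as Hes1 (159.4), are not measured, so the filter favours rises that last. Between 1 and 2 h the signal of 57 of those 90 went up and that of 33 went down, while their median moved from 1.61 to 1.78 on the log2 scale. The 94 late rises were smaller, and their median went from 0.49 to 0.97. At 1 h 86 of them already lay above 0 h and 8 below, in ratios that share the 0 h array with those at 2 h. A log2 ratio of at least 0.4 had been reached at 1 h by 56 of them, and of at least 0.7 by 14, so the 1 h limit separates many of these genes from the earlier group by little. For 55 of the 94 the step in the second hour was larger than in the first. At the upper edge at 1 h lay Clcf1 at 0.79 and Nfkbiz at 0.77 on the late side, and Errfi1 and Zfp516, both at 0.82, on the early side. At 2 h Eps8 (0.80) and Bzw1 (0.81) were the smallest rises counted, and Dnajb9 and Eif1a, both at 0.79, lay just below them.

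**Figure D1:**
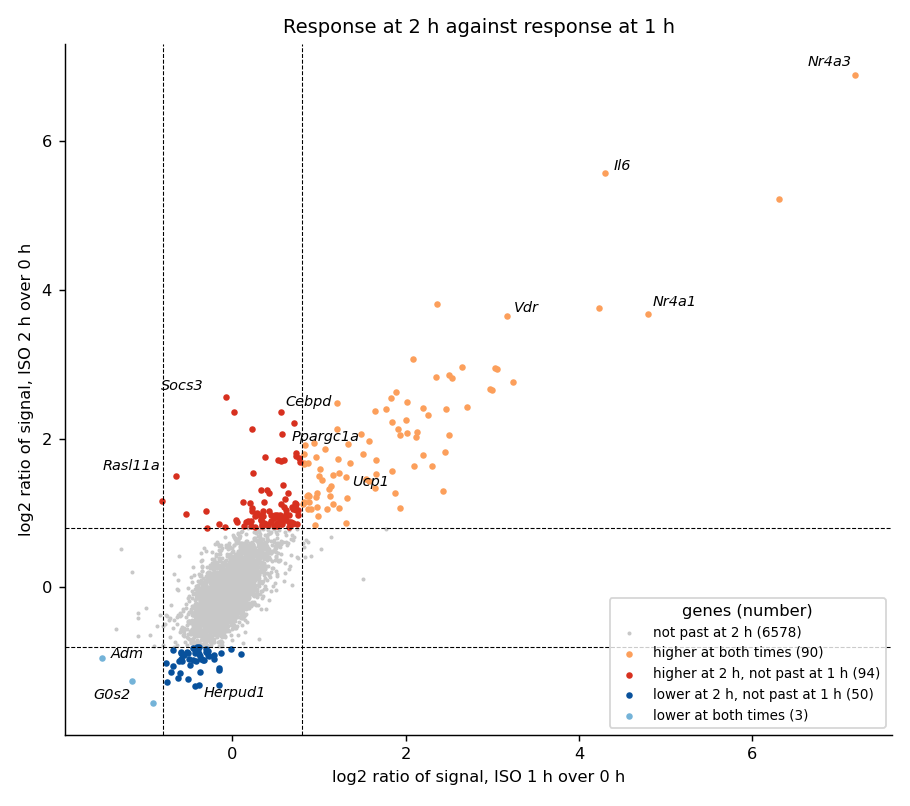
Response at 2 h (vertical axis, log2 of MAS5 signal over the 0 h array) against response at 1 h (horizontal axis, same scale), 1 point for each of 6815 genes, with dashed lines at log2 ratios of 0.8 and -0.8. The 94 late rises fill the band above the upper line and left of the right line, most of them to the right of 0, whereas the 50 late falls lie closer to their limit and none is below -1.33.

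The RefSeq promoters of the early and late groups are shown here because CREB acts through a known DNA element, so that the sequences let the groups be compared. Promoter entries (GRCm38.p6) were found for 73 of the 94 late rises, 71 of the 90 genes higher at both times and 38 of the 50 late falls, some with several starts, and the 250 bases before each start were searched on both strands. The full CRE, TGACGTCA, was in 3 of 108 promoters of late rises (2.78%), 5 of 89 promoters of genes higher at both times (5.62%), none of 49 promoters of late falls, 2.75% of those of measured genes not past the limit at 2 h and 1.55% of all 32851 promoters. Its core, TGACG, which every full CRE contains, was in 25.9% of the late rise promoters, 46.1% of the promoters of genes higher at both times, 18.4% of the late fall promoters, 28.7% of those of the same measured genes not past the limit and 17.8% of all. By both counts the late rises were near the measured genes not past the limit and the early group above them, with no test of the difference. The windows below hold the full CRE in capitals with up to 30 bases on either side, read in the direction of the gene. Flcn, Tubb2a and Wsb1 were late rises and the other 5 genes were higher at both times:
Flcn, chr11:59810051-59810118, strand -: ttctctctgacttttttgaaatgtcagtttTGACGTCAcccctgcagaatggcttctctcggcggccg
Tubb2a, chr13:34078030-34078097, strand -: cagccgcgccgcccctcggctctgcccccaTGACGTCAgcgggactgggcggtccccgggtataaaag
Wsb1, chr11:79254696-79254763, strand -: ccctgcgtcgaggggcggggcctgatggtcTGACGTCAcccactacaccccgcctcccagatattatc
Btg2, chr1:134079284-134079351, strand -: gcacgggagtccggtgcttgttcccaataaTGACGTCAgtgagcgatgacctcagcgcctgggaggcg
Ccnl1, chr3:65958250-65958297, strand -: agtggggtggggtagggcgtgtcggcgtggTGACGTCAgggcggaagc
Errfi1, chr4:150854989-150855056, strand +: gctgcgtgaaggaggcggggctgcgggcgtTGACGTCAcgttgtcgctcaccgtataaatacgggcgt
Maff, chr15:79347461-79347519, strand +: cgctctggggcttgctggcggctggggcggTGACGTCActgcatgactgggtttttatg
Slc25a25, chr2:32424179-32424246, strand -: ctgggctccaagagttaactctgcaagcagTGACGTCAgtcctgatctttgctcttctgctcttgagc
In Ppargc1a, whose coactivator drives the genes of mitochondria and heat production, the start is preceded by a core element on the other strand (capitals, CGTCA):
Ppargc1a, chr5:51567760-51567784, strand -: tgccctcccaCGTCActgagctcca
A match to letters is a description of the window, not a binding site.

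Transcription factors and their co-regulators formed the largest group of late rises sorted by function, 23 of 94. The functions of the 237 genes were assigned after their values were seen. Cebpd encodes C/EBPδ, a transcription factor of early adipogenesis and of acute phase responses. It had 103.0, 151.8 and 528.0, which gives a log2 ratio of 2.36 with most of the rise in the second hour. Its relatives differed in time or size: Cebpb, at 2254.0, 4795.9 and 4690.5, was past the limit at 1 h and had stopped rising, and Cebpa was at 388.6, 479.1 and 518.7, a log2 ratio of 0.42 at 2 h. Gli2, a transcription factor of Hedgehog signalling, went from 39.6 and 46.4 to 172.9 (log2 ratio 2.13, or 0.79 with signals below 100 set to 100). Jun, a subunit of AP-1, had signals of 199.3, 329.4 and 425.5. Its log2 ratio was 0.72 at 1 h, just short of the limit, and 1.09 at 2 h, and its second probe set gave 0.66. Its AP-1 partners Fosl2 (225.0, 844.7 and 983.8), Junb (19.5, 153.6 and 123.8) and Fosl1 (30.2, 69.8 and 168.6) were past the limit at 1 h. With signals below 100 set to 100 Junb was at 0.62 and then 0.31, and Fosl1 at 0 and then 0.75. Unlike Jun, Fosl1 rose more in the second hour than in the first. Of 28 measured CCAAT, AP-1, EGR and other immediate early regulators, 17 were higher and none lower at 2 h (median 1.20), but only Cebpd and Jun of the 17 were late. With signals below 100 set to 100, 13 of the 28 were higher and the median was 0.68. Listed members below 100 at both 0 h and 2 h are not among the 28. Sbno2, a co-regulator induced by interleukin-10 and interleukin-6, went from 46.4 to 67.1 and 152.0, and Cry1, a repressor of the circadian clock, from 66.2 to 85.5 and 146.9.

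Coactivators of mitochondrial and fatty acid oxidation genes were among the genes past the limit at 2 h only. Ppargc1a, at 293.4, 487.6 and 1029.9, moved from 0.73 to 1.81 on the log2 scale. Its 4 other kept probe sets gave 1.92 to 2.32 at 2 h, so that the main probe set had the smallest of the 5 ratios. At 1 h 2 of these other probe sets, at 1.02 and 1.01, were already past the limit, so that the late class of Ppargc1a holds for the chosen probe set. The study lists Ppargc1a among its genes induced at 1 h by the same threshold. Ppargc1b, which encodes the related coactivator PGC-1β, was at 840.6, 972.0 and 1489.2, which gives 0.83, or 0.78 after quantile normalization. Ppara, a nuclear receptor that works with these coactivators on fatty acid oxidation, stood at 217.1, 365.5 and 393.0 (0.86), most of it in the first hour, and its 2 other kept probe sets gave 0.66 and 0.54. Of the 16 measured members of the list of PGC-1, PPAR and ERR coactivators and receptors 4 were higher and none lower at 2 h (median log2 ratio 0.13, against -0.07 for all genes), Lpin1, a co-regulator and phosphatidate phosphatase, being the one already past at 1 h. Pparg, the main regulator of fat cells, had 1232.6, 1624.7 and 1953.6 (0.66), and Esrra, an orphan receptor partner of PGC-1, had 210.0, 213.0 and 209.9. Prdm16, a regulator of brown fat identity, and Rxrb, which pairs with PPARs, lay on the other side at -0.63 and -0.55, short of the limit. Among genes of the processes these factors are known for, none of 29 oxidative phosphorylation subunits was past the limit in either direction (median -0.09), and of 19 measured genes of fatty acid oxidation and the pyruvate dehydrogenase gate only Pdk4 was, a kinase that closes that gate (620.6, 1729.7 and 2587.5). Among 10 measured genes of uncoupling and brown fat identity, Ucp1 and Fgf21 were higher at both times. With signals below 100 set to 100 Fgf21 was at 0.58 at 2 h, short of the limit. Zic1, a transcription factor of brown precursors, was a late rise at 173.2, 276.3 and 318.8 (0.88, or 0.77 with 32 added to each signal).

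Cytokine signalling and its feedback showed the largest single late rise. Socs3 encodes an inhibitor of the receptors of the interleukin-6 family and of leptin. It stood at 202.1 and then 191.9 before reaching 1186.4, a log2 ratio of -0.07 and then 2.55. Its 2 other kept probe sets gave 2.61 and 2.22 at 2 h. Il6, which encodes interleukin-6, had risen earlier, from 20.7 to 406.6 and 981.6. Stat3, the transcription factor that interleukin-6 receptors activate, had 326.5, 368.8 and 606.6, a log2 ratio of 0.18 and then 0.89, and a second probe set gave 0.84. Clcf1, a cytokine of the same family, went from 34.1 and 58.8 to 109.6 (1.68, or 0.13 with signals below 100 set to 100). Of the 19 measured genes of interleukin-6 family cytokines, receptors and SOCS feedback, 9 were higher and none lower at 2 h (median 0.53). The other 6 were past the limit at 1 h, among them Socs2, Cish, Pim1 and Pim3, the first pair inhibitors and the second pair kinases that follow cytokine receptors. With signals below 100 set to 100, 8 of the 19 were higher and the median was 0.36. The receptor subunits and kinases were near 0, with Il6st, the shared receptor chain, at -0.15, Jak1 at -0.06 and Jak2 at -0.07.

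Of the NF-κB list 5 of 13 measured genes were higher at 2 h, and the late ones were Nfkbiz and Bcl6. Nfkbiz encodes IκBζ, a nuclear co-regulator of NF-κB target genes such as Il6. It had signals of 190.8, 326.3 and 633.9 (log2 ratio 1.73). Bcl6, a transcriptional repressor, had 265.3, 390.7 and 574.4 (1.11). Tank, an adaptor of TRAF signalling that is on no list, went from 209.3 and 246.6 to 609.7, or 0.24 and then 1.54 on the log2 scale. The inhibitor Nfkbia, a usual early target of NF-κB, was at -0.13 at 2 h. Among 13 measured chemokine and prostaglandin genes 5 were higher, of which Cxcl5 (41.1, 61.9 and 135.0) and Cx3cl1 (66.8, 102.2 and 125.2), chemokines for neutrophils and monocytes, were late. Both started below 100, and with signals below 100 set to 100 their log2 ratios were 0.43 and 0.32. With that floor 3 of the 13 were higher. Receptors of inflammatory cytokines were also among the late rises, with Il17ra at a log2 ratio of 0.99 (0.44 with that floor) and Il1r1 at 0.82 (0.70 with 32 added to each signal). The motif of STAT proteins, TTCCNGGAA, is shown because Socs3 and Stat3 were among these genes. It was in 3 of the 108 late rise promoters (2.78%), none of the 89 promoters of genes higher at both times, none of the 49 late fall promoters and 0.913% of all promoters, and the 3 belonged to Bcl6, Rasl11a and Sbno2. It was not in the 250 bases before the Socs3 start. The matches are in capitals, in the direction of the gene, and the 2 in Bcl6 lie in the same promoter:
Bcl6, chr16:23981333-23981401, strand -: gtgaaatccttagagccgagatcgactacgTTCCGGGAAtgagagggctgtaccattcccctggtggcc
Bcl6, chr16:23981413-23981481, strand -: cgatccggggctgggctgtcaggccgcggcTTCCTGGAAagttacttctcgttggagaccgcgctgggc
Rasl11a, chr5:146845019-146845070, strand +: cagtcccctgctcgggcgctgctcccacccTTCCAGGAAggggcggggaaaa
Sbno2, chr10:80101188-80101241, strand -: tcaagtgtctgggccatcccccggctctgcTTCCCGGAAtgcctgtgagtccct
Of the other motifs searched TATAAA was in 7.41% of late rise promoters and 12.4% of all. In promoters of measured genes not past the limit it was in 6.34%, near the late rises. TGANTCA, the AP-1 motif, was in 3.70% of late rise promoters, 3.95% of those of the same measured genes and 6.75% of all. CCAAT was in 36.1%, 35.4% and 33.9% in that order, and in 25 of the 49 late fall promoters (51.0%).

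**Figure D2:**
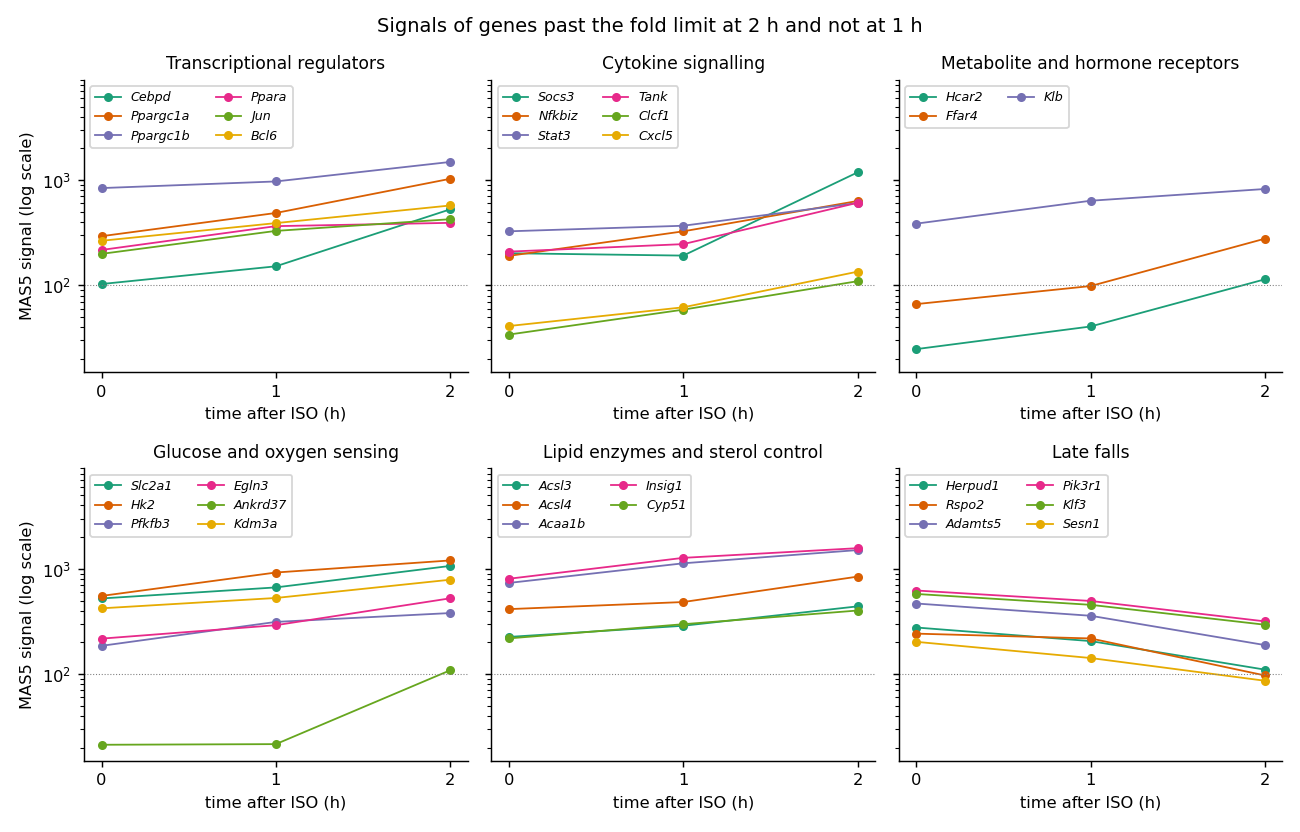
Time courses of late rises and late falls grouped by function, with hours of ISO on the horizontal axis and MAS5 signal on a logarithmic vertical axis. Each point is 1 array, so there are no error bars, and the dotted line marks a signal of 100. Socs3 is flat to 1 h and ends at 1186.4, Hcar2 and Ankrd37 start below 30, and Klb, Hk2 and Insig1 rise more in the first hour than in the second.

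Receptors that let fat cells sense metabolites and hormones were a group of late rises that was noticed in the values. Hcar2 encodes the receptor of nicotinic acid and β-hydroxybutyrate, which couples to the inhibitory G protein and so lowers cyclic AMP and lipolysis. It went from 24.8 and 40.7 to 114.3, a log2 ratio of 2.20 from a start far below 100 (0.19 with signals below 100 set to 100). Ffar4, also called GPR120, is a receptor of long-chain fatty acids, and it had 66.4, 98.6 and 278.1, a log2 ratio of 2.07 (1.48 with the floor). Klb encodes β-Klotho, the co-receptor through which FGF21 acts, and it had 386.2, 637.4 and 824.2 (1.09). Fgf21 itself, the ligand, went from 43.3 to 123.6 and 149.7, past the limit at 1 h, but was at 0.31 and then 0.58 with the floor. Fgfr1, the receptor partner of β-Klotho, was at 339.7, 302.8 and 347.8. A list of 19 such receptors, drawn up after these values were seen, had 6 measured members, of which these 3 were higher and none lower, and Insr, Ffar2 and Fgfr1 lay between 0.03 and 0.13. Hcar1, the lactate receptor of fat cells, had a highest signal of 43.1. Gpr153, an orphan receptor, was also a late rise, ending at 101.2.

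Genes of glucose uptake and phosphorylation were among the late rises, and a few genes of insulin signalling among the late falls. Slc2a1, the glucose transporter GLUT1, was at 523.1, 666.2 and 1065.6, or 0.35 and then 1.03 on the log2 scale, and its other kept probe sets gave 1.15 and 0.76. Hk2, hexokinase 2, which traps glucose in the cell, had 552.9, 923.0 and 1201.7 (1.12). Pfkfb3, which makes the activator of phosphofructokinase, had 185.6, 313.2 and 380.1 (1.03). Slc2a4, the insulin-responsive transporter GLUT4, was lower at each time, at 493.2, 390.1 and 348.9, with a log2 ratio of -0.50 that is short of the limit. Of 27 measured genes of insulin signalling and glucose uptake 7 were higher and 3 lower at 2 h, with a median of 0.05. Besides the 3 above, the late rises held Ccng2, a cyclin that FOXO factors induce (452.9, 505.2 and 832.2), and the early ones Irs2, Ddit4 and Trib1. Trib1 was at 0.24 at 2 h with signals below 100 set to 100. All 3 members that were lower were late falls. Pik3r1 encodes the regulatory subunit of PI3 kinase and had 622.6, 495.3 and 316.8 (-0.97), with a second probe set at -0.75. Sesn1 and Sesn2 encode sestrins, which restrain mTORC1 when amino acids are scarce, and they had 202.5, 142.1 and 86.4 (-1.23) and 127.7, 110.7 and 68.2 (-0.90), the latter at -0.35 with signals below 100 set to 100. The other kept probe sets of Sesn1 gave -0.59 and -1.11. Flcn, folliculin, another regulator of mTORC1, was a late rise at 260.8, 349.4 and 532.0 (1.03), but its second probe set gave 0.44. It is 1 of the 3 late rises with the full CRE above. The kinase Sgk1, which acts beside AKT, had 200, 332.0 and 410.2 (1.04).

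Many of these genes also belong to those known to respond to low oxygen. Egln3, a prolyl hydroxylase that marks hypoxia-inducible factors for decay, had signals of 217.2, 291.5 and 524.8 (1.27). Ankrd37 had 21.3, 21.6 and 108.7, a log2 ratio of 0.02 and then 2.35, or 0.12 at 2 h with signals below 100 set to 100. Ak4, a mitochondrial adenylate kinase, had 89.0, 102.9 and 195.3 (1.13), and Hmox1, haem oxygenase 1, had 152.5, 232.3 and 347.1 (1.19). Of 31 measured members of a list of hypoxia-responsive genes, drawn up after the values were seen, 11 were higher and 1 lower at 2 h, and 8 of the 11 were late, with Ddit4, Hilpda and Bhlhe40 past at 1 h. The member that was lower was Adm, the vasodilator adrenomedullin, at 274.6, 97.1 and 141.8. Glycolytic enzymes of the list were near 0, Ldha being at 0.09, Pgk1 at -0.01 and Aldoa at 0.05, and Car9 was at 0.06. The oxygen in these cultures is not given in the sources used here.

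Kdm3a, the demethylase at the centre of the study, is also on that list. It had 421.6, 528.7 and 788.3, or 0.33 and then 0.90 on the log2 scale, more of it in the second hour. Of 18 measured demethylases and methyltransferases of histone lysines it was the only one past the limit at 2 h, and the list's median was -0.01. Jmjd6 (162.1, 196.4 and 271.8) and Kdm6b (385.3, 632.6 and 613.6) came next at 0.75 and 0.67. The measured methyltransferases of H3K9 lay below 0, with Ehmt1 at -0.36, Ehmt2 at -0.41 and Setdb1 at -0.21. Setdb1 had 107.7, 123.1 and 93.4, and was at -0.11 with signals below 100 set to 100. Setdb2 and Suv39h2 were below 100 at 0 h and 2 h, and Suv39h1 had no probe set with a single symbol. None of 16 measured subunits of SWI/SNF, the remodelling complex the study links to JMJD1A, was past the limit (median -0.18).

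Enzymes that activate fatty acids and genes of sterol synthesis were also among the late rises. Acsl4 and Acsl3 encode acyl-CoA synthetases, and they had 414.3, 483.8 and 843.7 (1.03) and 225.5, 287.8 and 440.1 (0.96). Their other probe sets gave 0.92 and 1.48. Acaa1b, a thiolase of peroxisomal fatty acid oxidation, had 735.0, 1128.8 and 1508.1 (1.04), a value that its close paralog Acaa1a may share. Of 25 measured genes of fatty acid activation, triglyceride synthesis and desaturation 4 were higher and none lower, the early ones being Pck1 and Lpin1. Scd1, a desaturase, was at -0.15 on its brighter probe set, but the median over its kept probe sets was past the limit upwards, as given below. In sterol metabolism Insig1, which holds the SREBP complex in the endoplasmic reticulum when sterols are ample, had 805.3, 1271.7 and 1572.3 (0.97), and Cyp51, the lanosterol demethylase, had 218.4, 297.8 and 401.8 (0.88, or 0.79 with 32 added to each signal). They were the only 2 of 13 measured genes of cholesterol synthesis and uptake to pass, but 12 of the 13 lay above 0 with a median of 0.33. Of all 6815 genes 2638 lay above 0, and their median was -0.07. Sc5d, Hmgcs1 and Sqle, enzymes of that pathway, followed at 0.77, 0.68 and 0.64, and Lss, lanosterol synthase, was the exception at -0.26. The lysosomal and ceramide enzymes Gla and Acer2, at 0.98 and 0.97, were further late rises.

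**Figure D3:**
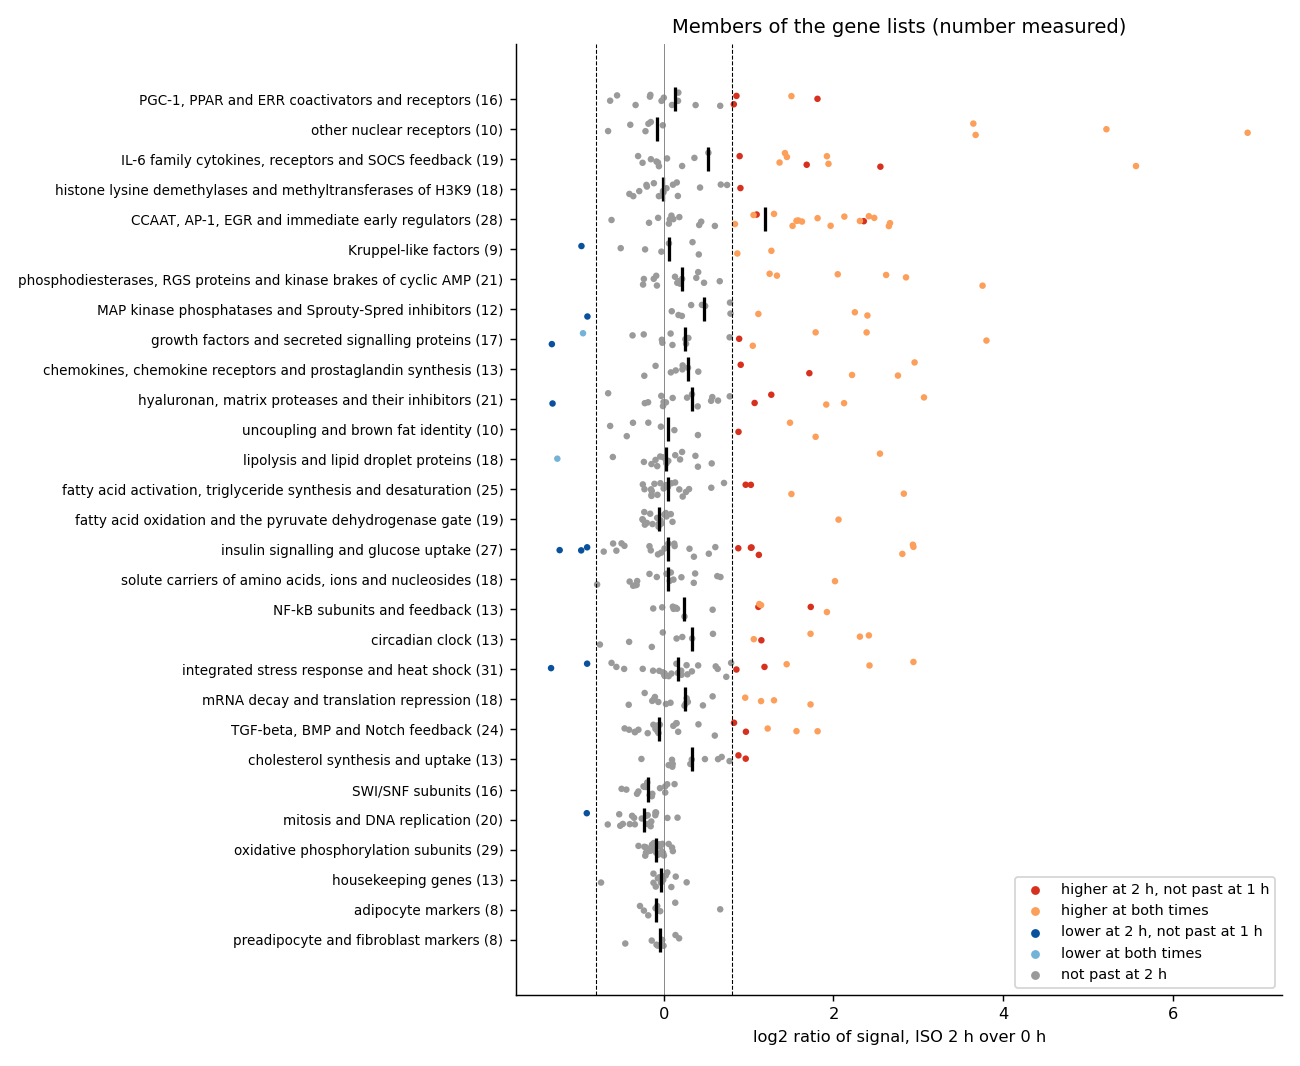
Response at 2 h of every measured list member, as log2 of MAS5 signal over the 0 h array on the horizontal axis, 1 row per list and 1 point per gene, with black bars at the medians and dashed lines at 0.8 and -0.8. Late rises (red) stand in the rows of coactivators, IL-6 signalling, glucose uptake and cholesterol, the rows of oxidative phosphorylation and SWI/SNF stay within the lines, and the median is 1.20 for immediate early regulators and -0.23 for mitosis. With signals below 100 set to 100 the median for immediate early regulators is 0.68.

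Genes of glycans, proteoglycans and the matrix made up 8 late rises. Ugdh, which makes the UDP-glucuronic acid of hyaluronan and heparan sulphate, had 807.0, 1263.3 and 1941.9 (1.27). Has2, a hyaluronan synthase (26.9, 113.9 and 225.5), and Uap1, of amino sugar donor synthesis (556.4, 991.4 and 2098.1), were past the limit at 1 h, Uap1 at 0.83 with its other probe sets at 0.82, 0.72 and 0.56. Gcnt2, a glycosyltransferase of branched chains, went from 99.6 and 129.6 to 335.7 (1.75), and its second probe set gave 2.78. St3gal1 and B4galt1, which add sialic acid and galactose, were at 1.30 and 0.94, the former from 40.5 to 100. Sdc4, Sdc1 and Gpc1 carry heparan sulphate at the cell surface, and they were at 0.85, 0.82 and 0.97, whereas Sdc2 was at -0.14 and Gpc4 at -0.63. The 2 other probe sets of Sdc1 gave 0.49 and 0.27, Gpc1 was at 0.16 with the floor, and Sdc4 was at 0.79 when 32 was added to each signal. Timp1, an inhibitor of matrix proteases, had 155.3, 182.0 and 326.1 (1.07). In the opposite direction, Adamts5, a protease that cuts aggrecan and versican, was a late fall at 468.5, 358.2 and 188.6 (-1.31) with a second probe set at -1.28. Its relative Adamts4 was higher at both times (34.5, 79.9 and 150.5), but at 0.59 at 2 h with the floor. Of the 21 measured genes of hyaluronan, matrix proteases and their inhibitors 5 were higher and 1 lower.

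Redox enzymes, stress genes and signalling adaptors completed the late rises. Gclc, the catalytic subunit of glutathione synthesis, had 412.2, 696.7 and 808.6 (0.97), but its partner Gclm was at -0.05. Cbr3, a carbonyl reductase, had 375.0, 616.6 and 825.8 (1.14). Of 31 measured genes of the integrated stress response and heat shock 5 were higher and 2 lower, the late rises being Hmox1 and Cdkn1a, an inhibitor of the cell cycle (721.7, 931.1 and 1306.0). Shb, an adaptor of tyrosine kinase receptors, went from 35.5 and 58.9 to 121.0 (1.77, or 0.28 with the floor). Sh2b2, an adaptor of the insulin and cytokine receptors, had 286.5, 461.4 and 606.6 (1.08). In the TGF-β family Smad3, a transducer (153.3, 219.7 and 299.8), and Tgif1, a repressor of SMADs (166.4, 237.0 and 295.3), were late. Metrnl, a secreted factor of fat and muscle, had 117.7, 160.3 and 217.8 (0.89), and Sema3g, a secreted guidance factor, had 148.4, 196.5 and 367.5 (1.31). Of the 20 largest late rises, Fam110c and the ubiquitin ligase Rnf217 also belong here, at 43.3, 63.7 and 140.1 (1.69, or 0.49 with the floor) and at 203.2, 305.6 and 527.3 (1.38). A few were below 0 h at 1 h. Rasl11a, a small GTPase-like protein, had 67.7, 43.1 and 191.8, and Ly75, an endocytic receptor, had 61.0, 34.7 and 135.7, so that at 1 h it was lower by the same limit (-0.81) that it passed upwards at 2 h (1.15). Of the genes named above, Sbno2 (0.60), Cry1 (0.55), Ly75 (0.44) and Gpr153 (0.02) fell short of the limit with signals below 100 set to 100, as did St3gal1, and Metrnl (0.74), Tgif1 (0.72) and Gla (0.78) with 32 added to each signal.

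**Figure D4:**
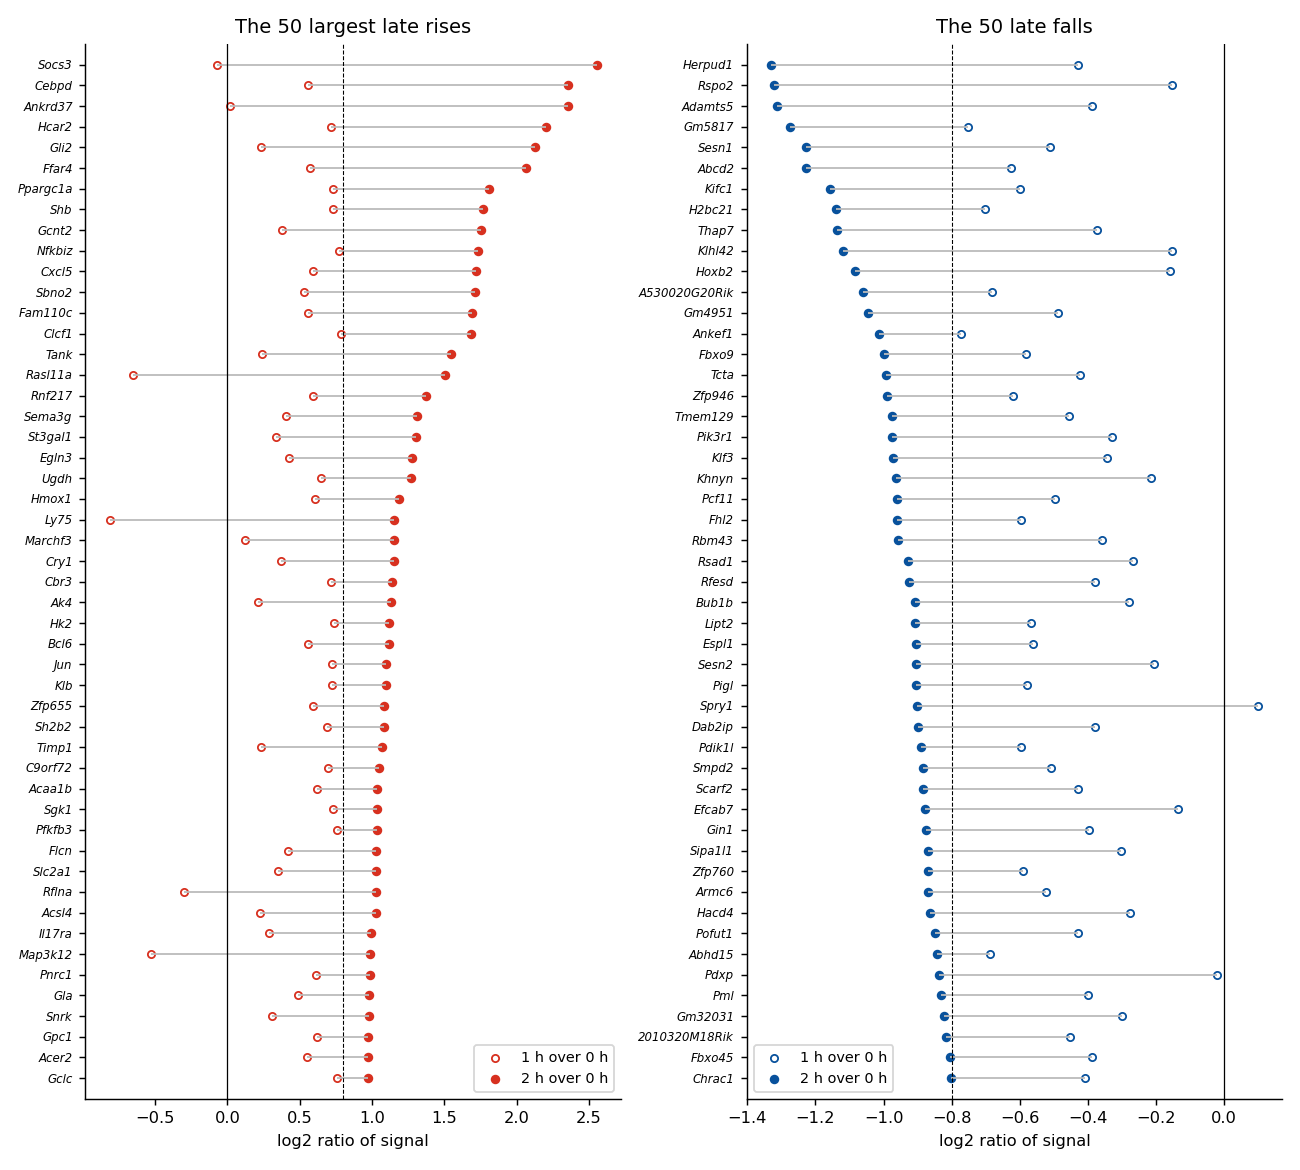
Log2 ratio of MAS5 signal (horizontal axis) at 1 h (open circles) and 2 h (filled circles) over 0 h for the 50 largest of 94 late rises (left) and the 50 late falls (right), with dashed lines at the limit. Rises reach 2.55 and falls -1.33, and most open circles lie between 0 and the limit, with Socs3, Rasl11a, Ly75, Rflna and Map3k12 among the rises and Spry1 among the falls on the other side of 0.

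The falls were fewer, smaller and dimmer. Only Cdc42ep3, G0s2 and Adm were past the limit at both times. G0s2, which inhibits the lipase ATGL, had 2638.8, 1183.3 and 1104.6 and was the brightest gene that fell, and Cdc42ep3, an effector of the GTPase CDC42, had 221.2, 117.6 and 74.9 (-1.56). The median of the 50 late falls went from -0.43 to -0.93, and 49 of them were already below 0 h at 1 h. At 2 h 39 of the 50 had a signal below 100, and 19 stayed past the limit with signals below 100 set to 100, as did 69 of the 94 late rises. The dimmest of the 20 bins, with a median signal of 95.9, held 24 of the 53 genes lower at 2 h and 38 of the 184 higher.

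**Figure D5:**
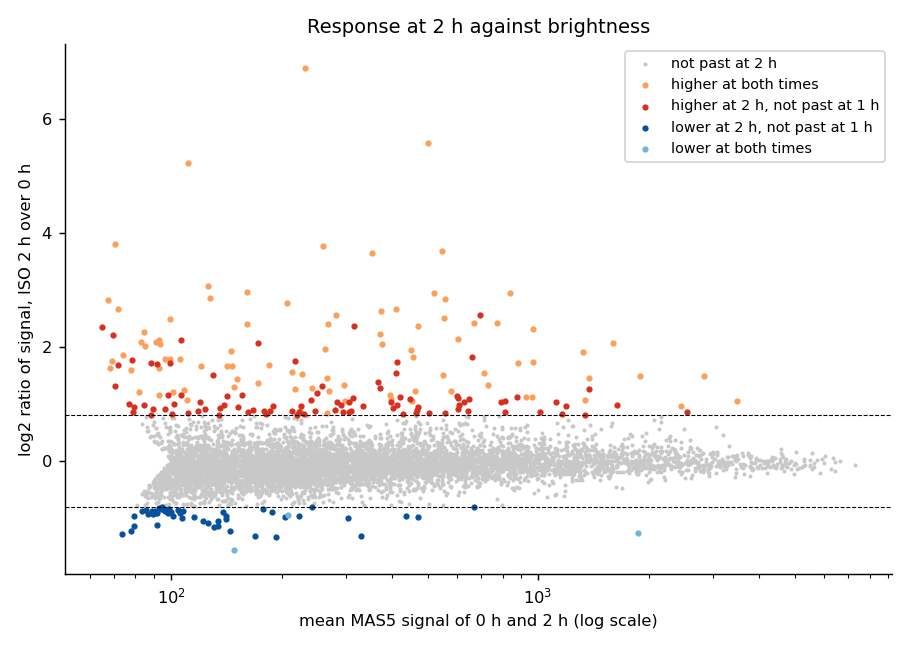
Response at 2 h (vertical axis, log2 of MAS5 signal over the 0 h array) against the mean signal of both arrays (horizontal axis, log scale), 1 point per gene, with dashed lines at 0.8 and -0.8. The genes higher at 2 h are spread over most of the range of signal, whereas 24 of the 53 lower ones crowd into the dimmest bin around a signal of 95.9, and the cloud of other genes narrows from a spread of 0.42 to 0.12.

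The largest late fall was Herpud1, a component of the degradation of misfolded proteins from the endoplasmic reticulum, at 277.1, 205.8 and 110.2 (-1.33). Its second probe set gave -0.87. Its neighbours in that stress response did not share one direction: Ddit3, the transcription factor CHOP, was at -0.62 and Atf5 at -0.47, while Dnajb9 was at 0.79 and the chaperone Hspa5 at 0.06. Rspo2, a secreted amplifier of WNT signalling, had 242.3, 218.1 and 97.0 (-1.32), nearly all of it in the second hour. Klf3, a repressor of adipogenic genes, had 577.4, 455.2 and 294.4 (-0.97) with a second probe set at -1.07, whereas Klf4 and Klf10 of the same family were higher at both times. Spry1, an inhibitor of receptor tyrosine kinase signalling, was at 139.6 at 1 h, above its 130.2 at 0 h, and at 69.7 at 2 h (-0.90, or -0.38 with the floor). Abhd15, which restrains lipolysis in adipocytes together with PDE3B, had 228.5, 141.8 and 127.5 (-0.84, or -0.71 with 32 added to each signal). Abcd2, a peroxisomal transporter of fatty acids, had 109.3, 70.8 and 46.7 (-1.23, or -0.13 with the floor). Fbxo9 and Fbxo45, subunits of ubiquitin ligases, had 404.8, 270.6 and 202.6 and 308.7, 236.1 and 176.6, and Pcf11, a factor of transcript cleavage and termination, had 294.9, 209.1 and 151.4 (-0.96). The other kept probe sets of Pcf11 gave -0.30 and -0.89. Chrac1, a histone-fold subunit of a chromatin remodeller, was the brightest late fall at 851.2, 641.4 and 488.6, and with -0.80 it was also the nearest to the limit, with Rbak and Cep192 just outside it at -0.80. The calls of Fbxo45 and Chrac1 ended in 4 and 5 of the alternatives, Chrac1 being at -0.24 with probe sets of shared sequence left out.

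Few genes of cell division were past the limit. Bub1b, a kinase of the spindle checkpoint, had 138.2, 113.9 and 73.6 (-0.91, or -0.47 with signals below 100 set to 100), and its second probe set gave -0.63. Espl1, the protease that separates sister chromatids, had 119.1, 80.7 and 63.6 (-0.91, or -0.25 with the floor). Kifc1, a motor of the spindle, had 180.9, 119.4 and 81.1 (-1.16). Of 20 measured genes of mitosis and DNA replication only Bub1b was past the limit, and none was with the floor. Above 0 lay 2 of the 20, against 2638 of all 6815 genes, and the median was -0.23 against -0.07 for all. The mitotic kinases and their partners were lowest, Plk1 at -0.66, Aurkb at -0.53 and Cdc20 at -0.51, while the replication helicase genes Mcm3 and Mcm4 were at 0.16 and 0.04. The rest of the 20 largest late falls were Thap7, Klhl42, Hoxb2, H2bc21, Tcta, Zfp946, Tmem129, Ankef1, Gm5817, Gm4951 and A530020G20Rik, with log2 ratios from -0.98 to -1.27, all but Tmem129 with a signal below 100 at 2 h. Hoxb2 (171.6, 153.9 and 80.9) is a homeobox gene of body position, and H2bc21 (108.9, 66.9 and 49.4) encodes a histone H2B, and other histone genes of near-identical sequence may share its probes.

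Probe sets other than the one chosen gave a partial check on the probes, though not on the samples. A probe set below 100 at 0 h or at 2 h was kept only if it was at least 100 at the other time. Its direction was therefore fixed by the filter, as for probe sets of Socs3 (27.9 and 87.6 at 0 h) and Gcnt2 (24.5). The same held for most other probe sets of late falls, such as those of Klf3 (66.9 at 2 h) and Pik3r1 (70.8). The counts that follow include such probe sets, whose shared direction is no check. For 30 of the late rises 47 other probe sets were kept, and all 47 were higher at 2 h, 27 of them past the limit. At 1 h 6 of the 47 were already past it, 2 for Ppargc1a and 1 each for Chd1 (2.08), Nfkbiz (0.96), Sdc4 (0.81) and Gcnt2 (0.80), against the late class of these genes. For 12 of the late falls all 14 other probe sets were lower, 7 past the limit, and for 26 genes higher at both times all 33 were higher, 31 past. Among genes not past the limit 65.3% of other probe sets had the direction of the chosen one and 1.94% were past the limit in it. Genes that rise from below 100 are kept by the filter when they end above it, as 32 of the 94 late rises did, and those that stay below are not measured, so that the filter itself favours genes that move.

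The 10 largest rises at 2 h among genes past the limit at both times show what the late genes joined. Nr4a3, Nr4a2 and Nr4a1, orphan nuclear receptors, were higher at 1 h than at 2 h, at 566.5, 459.6 and 2204.4 and then at 460.6, 216.0 and 1015.2, and so was Sik1, a kinase that restrains CREB coactivators (669.3 and 481.7). Il6, Tnfsf11, Vdr, Has2 and Ackr3 were still rising: Tnfsf11, the cytokine RANKL, went from 9.4 to 48.4 and 131.3, Vdr, the vitamin D receptor, from 52.0 to 468.7 and 652.5, and Ackr3, a decoy receptor of CXCL12, from 36.7 to 230.0 and 284.9. With signals below 100 set to 100 Tnfsf11 was at 0.39 at 2 h, short of the limit. Ddit4, an inhibitor of mTORC1, was level at 1581.8 and 1485.0. Pck1, of glyceride synthesis, was at 137.3, 702.5 and 976.2, and Ucp1, the uncoupling protein, at 1485.7, 3673.2 and 4166.1.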

How the data were processed

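RNA of differentiated iBATs at 0, 1 and 2 h of ISO was hybridized by the authors to 3 Affymetrix mouse arrays, 1 per time point. The authors computed MAS5 signals, named in the submitters' processing notes, and the deposited intensity values are on a linear scale, 1 per probe set and array; they were used without further scaling. The number of arrays limits the precision. Detection calls were not used, and the number of value columns not mapped to a sample was 0.

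Of 45101 probe sets, 34958 had 1 symbol in the platform annotation, 932 had several and 9211 are unnamed here. Identifiers of 34754 matched a RefSeq table (GRCm38.p6), and 0 symbols changed. A signal of 100 on either array was required, signals listed as 0 were given 0.1, and log2 ratios to 0 h were taken with pandas 2.3.3 and numpy 2.4.6 (Python 3.11.15). Robust spread is the median absolute deviation scaled by 1.4826. Called were log2 ratios of at least 0.8 in size, the threshold the study used for 1 h, with no test. The calculation was tested on simulated data.

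Named are the 20 largest late rises and late falls, the 10 largest rises and all falls past the limit at both times, list members among late rises or falls, and genes on the question of the study, while others, picked with their values known, complete a pathway. The members and the 32 gene lists were chosen with earlier results of these data known, and 3 further lists and all functions were assigned after the values were seen. The alternatives were other filters, floors, scalings (cyclic loess from limma 3.58.1, R 4.3.3), probe set choices and thresholds. Figures were drawn with matplotlib 3.10.9.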

Additional observations from a re-analysis of the deposited data

Results flagged for a closer look

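Probe sets without a single gene symbol lie outside the comparison above. Of 877 such probe sets that reached 100 on either array, 34 (3.88%) were higher at 2 h by a log2 ratio of at least 0.8 and 4 (0.456%) lower, and 22 of the 34 had not reached it at 1 h. The largest log2 ratio among them was 2.52. They are given because they are signal in data that the gene counts do not use, and their genes are not named here.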

How the results depend on the processing

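With 1 array per time point, differences between cultures cannot be separated from the response. No paired analysis was possible because each time point has 1 array and the result comes from no test.

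The 184 rises were 108 with a signal of at least 100 required on both arrays and 2412 with no filter. The 53 falls were 13 and 2165 in those settings, 16 with at least 200 on either array, 22 with signals below 100 set to 100, 21 with 32 added to each signal, 16 at a threshold of 2-fold and 80 with any kept probe set. The 94 late rises were 62 with 100 on both arrays, 1099 with no filter and 60 at 2-fold. The 50 late falls were 11 with 100 on both arrays, 13 with at least 200, 1173 with no filter, 19 with signals below 100 set to 100, 19 with 32 added and 15 at 2-fold. The stricter filters and thresholds count fewer genes by construction, and without a filter dim probe sets are added.

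Leaving the 2-fold threshold aside, 43 of the 94 late rises stayed past the limit at 2 h in every setting in which they were measured. So did 65 of the 90 genes higher at both times and 13 of the 50 late falls. All 3 falls past the limit at both times did as well. The limit at 1 h was not part of these counts. With cyclic loess 91 of the 94 were still late rises. At 2-fold, 42 of the 94 late rises had a ratio of that size. None of the 237 genes past the limit turned its direction at 2 h in these settings, and of genes not past it only Scd1 was followed, at -0.15 and at 0.93 as the median over its kept probe sets.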

Other observations

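Of the 23 genes past the limit at 1 h and not in the same direction at 2 h, 10 had been higher and 13 lower. Dusp1, a phosphatase of MAP kinases, went from 341.4 to 1163.5 and back to 588.5, and Id1, an inhibitor of helix-loop-helix factors, from 286.5 to 811.6 and back to 309.5. Cited2, a co-regulator that limits hypoxia-inducible factors, went from 584.7 to 274.6 and 370.4. Clec2d, a ligand of natural killer cell receptors, went from 769.4 to 315.2 and then to 1098.6, and Slc1a3, a glutamate transporter, from 213.8 to 96.2 and then to 246.8. None of these 5 was past the limit at 2 h, and they were named after their values were seen.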
